A study of Mus musculus with 38 samples.

Results

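Stra8, the gene that retinoic acid (RA) switches on at the entry into meiosis, and 7 further genes of the germ line (Rec8, Dazl, Mael, Tex19.1, Morc1, Sycp3 and Taf7l) were followed while mouse embryonic stem cells (mESCs) left pluripotency. The 8 genes were chosen by name from the 23481 genes of the bulk table, and all were also listed in both single-cell data sets. E14 mESCs were grown in 2i/L, a serum-free medium with inhibitors of MEK and GSK3 and the cytokine LIF, and then received RA at 0.25 µM in N2B27, a medium without these factors. Bulk RNA was sequenced from 2 libraries of mESCs in 2i/L and from 1 library at each of 9 time points between 6 h and 96 h of RA. Further bulk libraries, 1 each, came from the CD24 quartiles (Q1 to Q4, lowest to highest) of PDGFRA- cells at 48 h, and from the CD24 terciles (T1 to T3) of PDGFRA- cells and the PDGFRA+/CD24- cells at 72 h. Cells sorted at 96 h as ectoderm-like (ecto) or extraembryonic endoderm-like (XEN) gave 2 libraries each, and a culture derived from each type gave 1 library, ecto after 5 passages and XEN after 3 weeks. Single cells were profiled by SCRB-seq at 9 time points and by SMART-seq2 in 2i/L and after 12, 24 or 48 h of RA. All cells came from 1 line, and each assay had 1 sample of the unsorted cells at each time point of RA.

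RA acts through nuclear receptors that bind DNA with a retinoid X receptor partner, and in the fetal ovary and the postnatal testis it induces Stra8 and with it the programme of meiosis. Many other genes of the germ line are kept silent in somatic cells by promoter DNA methylation and by repressor complexes, and mESCs in 2i/L, in which DNA methylation is low, are known to transcribe some of them. The gene set was named for Stra8 against germline genes that are already on in 2i/L. This held in bulk RNA for Dazl, Tex19.1, Morc1 and Sycp3, which had at least 20 unique molecular identifiers (UMIs, each standing for 1 captured RNA molecule) in both mESC libraries. It did not hold for Rec8, Mael and Taf7l, which had between 1 and 13 UMIs there.

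Promoter sequences are shown for the RA-induced gene and for the 3 members that share an E-box. RefSeq windows on GRCm38.p6 were found for 7 of the 8 genes. Each sequence covers the 250 bases before the transcription start in the direction of the gene. Capitals mark AGGTCA (the core letters bound by RA receptors), CACGTG (an E-box), TCCCGC (bound by E2F factors) and the longer TTCCCGC on either strand. Stra8, at chr6:34920698-34920947 on the plus strand, held AGGTCA at 2 places, which 1.81% of the 32851 windows did (these also include 50 bases after the start), while 16.3% held at least 1 copy. GENCODE places the start of Stra8 at 34920163, so these bases precede the RefSeq start but lie inside the gene as annotated by GENCODE.
Stra8: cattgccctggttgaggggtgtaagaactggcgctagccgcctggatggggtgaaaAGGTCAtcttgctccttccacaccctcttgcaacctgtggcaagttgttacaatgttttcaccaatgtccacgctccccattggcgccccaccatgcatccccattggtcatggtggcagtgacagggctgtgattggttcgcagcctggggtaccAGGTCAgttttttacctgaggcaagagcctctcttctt
Mael lies at chr1:166238745-166238994 on the minus strand, Taf7l at chrX:134476491-134476740 on the minus strand and Sycp3 at chr10:88459337-88459586 on the plus strand. All 3 held CACGTG, against 7.15% of all windows, although Mael and Taf7l rose in RA and Sycp3 was lost. Sycp3, like Stra8, also held AGGTCA.
Mael: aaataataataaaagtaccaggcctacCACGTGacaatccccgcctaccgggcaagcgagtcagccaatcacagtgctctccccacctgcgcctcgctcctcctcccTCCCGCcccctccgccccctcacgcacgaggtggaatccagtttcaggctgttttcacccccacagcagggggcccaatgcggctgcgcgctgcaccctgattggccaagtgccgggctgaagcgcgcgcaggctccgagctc
Taf7l: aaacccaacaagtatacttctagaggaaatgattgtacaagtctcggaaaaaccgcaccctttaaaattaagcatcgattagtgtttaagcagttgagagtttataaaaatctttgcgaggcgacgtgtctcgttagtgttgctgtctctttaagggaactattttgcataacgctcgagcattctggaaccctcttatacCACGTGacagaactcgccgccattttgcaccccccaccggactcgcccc
Sycp3: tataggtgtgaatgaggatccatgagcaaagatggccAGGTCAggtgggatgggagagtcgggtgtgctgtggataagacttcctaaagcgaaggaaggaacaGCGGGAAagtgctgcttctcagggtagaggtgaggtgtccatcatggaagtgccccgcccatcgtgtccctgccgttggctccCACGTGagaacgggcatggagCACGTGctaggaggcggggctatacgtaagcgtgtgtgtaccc
TCCCGC was found in Rec8, Mael, Tex19.1 and Sycp3 and in 20.0% of all windows, and the longer TTCCCGC, which contains it, in Sycp3 and in 4.60%. GGTTCA was in none of the 7 windows and in 10.4% of all. The ratio of observed to expected CpG ran from 0.430 in Stra8 to 1.03 in Taf7l, against a median of 0.384 over all windows. A match describes these letters and is not a measured binding site.

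The 25 bulk libraries held between 1063830 and 2459483 UMIs. Levels are given as counts per 1000000 UMIs (CPM), and intervals are exact 95% intervals that cover counting error only. An RA time point had 1 library, so the time course has no test. In bulk RNA, fewer cells that express a gene and less RNA per cell cannot be told apart. The mESC libraries differed by at least 2-fold in 12.2% of the 6623 genes with at least 20 UMIs in one of them, and in 3 of the 5 members among these (Stra8, Dazl and Tex19.1). In edgeR's quasi-likelihood test, all 11 ectoderm markers were lower and all 11 XEN markers higher in sorted XEN than in sorted ecto. Of 6 markers of germ cells proper, between 2 and 5 were at 0 in each library, and their summed level ran from 0.535 to 38.8 CPM.

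Stra8 (chr6:34920163-34939344) rose from 20.998 CPM (48 UMIs) and 5.22 CPM (12 UMIs) in the mESC libraries. The RA libraries had 38.1 CPM at 6 h, 259.9 CPM at 12 h, 578 CPM at 24 h, 536 CPM at 36 h, 619.6 CPM at 48 h, 457 CPM at 60 h, 185 CPM at 72 h, 79.3 CPM at 84 h, then 27.2 CPM at 96 h. Every RA library lay above both mESC libraries. The level was 2.91-fold that of the pooled mESC libraries at 6 h (interval 2.05 to 4.15), 19.9-fold at 12 h (15.2 to 26.3) and 44.2-fold at 24 h (34.1 to 58.3). The size of the rise depended on the mESC library, with a log2 change at 24 h of 5.47 against both, 4.78 against library 1 alone and 6.79 against library 2 alone. The levels at 48 h and 24 h differed by 1.07-fold (0.992 to 1.16), so that no single peak was resolved. From 48 h to 96 h the level fell 22.8-fold (17.3 to 30.6), to 2.08-fold the mESC level (1.41 to 3.05).

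Rec8 (chr14:55618037-55625395), the kleisin subunit of meiotic cohesin, rose later than Stra8. It had 0.437 and 5.66 CPM in the mESC libraries (1 and 13 UMIs), 1.47 CPM at 6 h, 0.881 CPM at 12 h, 4.48 CPM at 24 h, 11.5 CPM at 36 h, 29.7 CPM at 48 h, 30.02 CPM at 60 h, 23.4 CPM at 72 h, 8.30 CPM at 84 h, then 4.10 CPM at 96 h. It lay between the mESC libraries until 24 h, when Stra8 was already on its plateau, above both from 36 h to 84 h and between them again at 96 h. At 48 h it was at 9.72-fold the pooled mESC level (5.44 to 18.6), a log2 change of 3.28 that was 2.39 against mESC library 2 alone and 6.08 against library 1 alone, with its 1 UMI. Mael (chr1:166201201-166238747), a protein of the piRNA pathway that restrains transposons, rose from 4 and 3 UMIs in the mESC libraries to 26 UMIs at 48 h (10.6 CPM, 6.92-fold, 2.93 to 18.9) and stood at 6 UMIs at 96 h. Taf7l (chrX:134460118-134476490), a germ cell paralogue of the TFIID subunit TAF7, rose from 1 UMI in each mESC library to 17 UMIs at 48 h (6.91 CPM, 15.8-fold, 3.76 to 141) and stood at 4 UMIs at 96 h. In bulk RNA, these 3 genes were thus low in 2i/L and highest at 48 h or 60 h of RA.

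Morc1 (chr16:48431237-48630900), which is needed to silence transposons in male germ cells, was high in both mESC libraries and was lost. It had 392 and 341 CPM in 2i/L, 190.2 CPM at 6 h, 218.9 CPM at 12 h, 109 CPM at 24 h, 50.2 CPM at 36 h, 17.9 CPM at 48 h, 10.2 CPM at 60 h, 6.54 CPM at 72 h, 9.33 CPM at 84 h, then 11.8 CPM at 96 h. Every RA library lay below both mESC libraries, and the ratio to their pooled level was 0.519 at 6 h (0.464 to 0.580) and 0.0322 at 96 h (0.0203 to 0.0484). Sycp3 (chr10:88459569-88473236), a component of the axial element of the synaptonemal complex, was lost later. It had 14.9 and 20.5 CPM in the mESC libraries, 8.31 CPM at 6 h, 26.4 CPM at 12 h, 23.9 CPM at 24 h, 23.6 CPM at 36 h, 11.8 CPM at 48 h, 8.41 CPM at 60 h, 4.90 CPM at 72 h, 1.56 CPM at 84 h, then 1.54 CPM at 96 h. It lay above both mESC libraries from 12 h to 36 h and below both at 6 h and from 48 h on. The excess at 12 h was 1.496-fold (1.05 to 2.11). Sycp3 overlaps Chpt1 on the opposite strand, and the use of strand in counting is not given in the sources used here.

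Dazl (chr17:50279395-50293636), an RNA-binding protein of germ cells, depended on the mESC library. Library 1 had 176 CPM (403 UMIs) and library 2 had 12.6 CPM (29 UMIs), a 13.97-fold difference (9.58 to 21.1), and differences of 10-fold or more were seen in 0.468% of genes. The RA libraries had 33.2 CPM at 6 h, 81.1 CPM at 12 h, 56.3 CPM at 24 h, 55.7 CPM at 36 h, 39.8 CPM at 48 h, 15.6 CPM at 60 h, 10.9 CPM at 72 h, 9.33 CPM at 84 h, then 5.12 CPM at 96 h. Those from 6 h to 60 h lay between the mESC libraries and those from 72 h on lay below both. The log2 change at 24 h was -0.74 against both mESC libraries and 2.16 against library 2 alone. Tex19.1 (chr11:121146143-121148319), which protects germ cells and placenta from retrotransposons, had 73.5 and 24.8 CPM in the mESC libraries, a 2.96-fold difference (2.18 to 4.07). Its RA libraries had 62.1 CPM at 6 h, 63.9 CPM at 12 h, 50.3 CPM at 24 h, 42.4 CPM at 36 h, 30.5 CPM at 48 h, 32.4 CPM at 60 h, 13.1 CPM at 72 h, 16.1 CPM at 84 h, then 20.0 CPM at 96 h. They also lay between the mESC libraries until 60 h and below both from 72 h on. Its paralogue Tex19.2 had at most 4 UMIs in any bulk library.

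**Figure D1:**
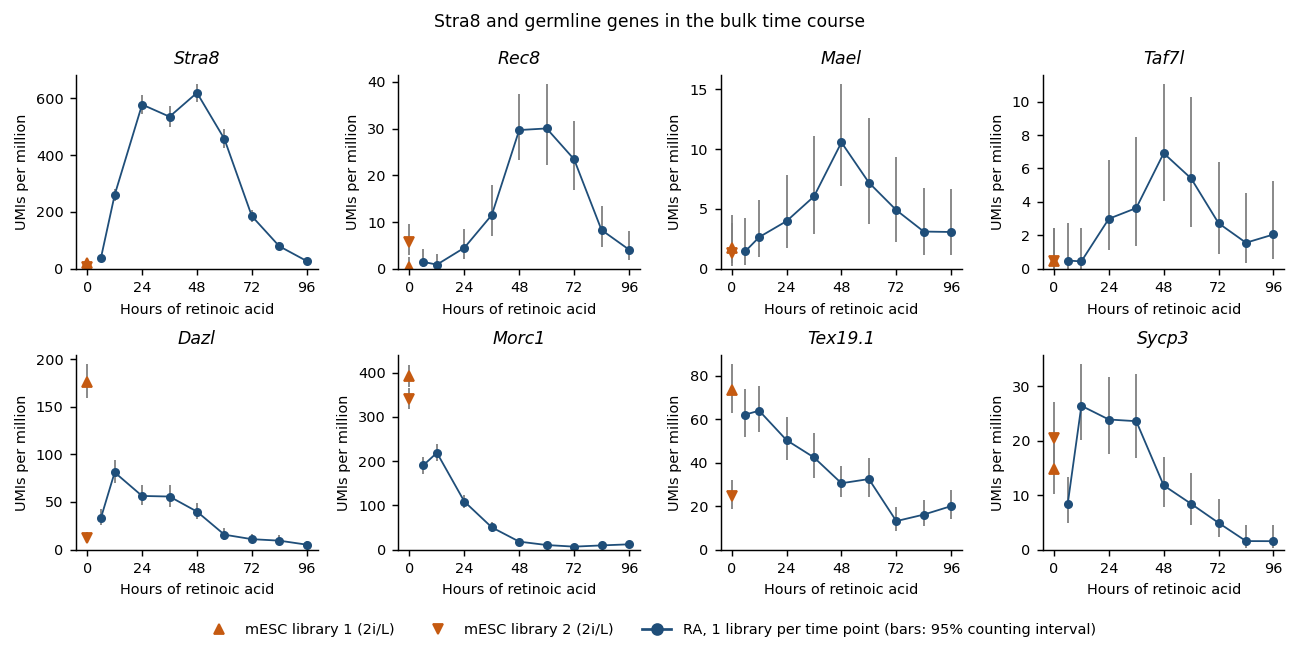
Bulk levels of the 8 genes in CPM against hours of RA, with both mESC libraries at 0 h and 95% counting intervals as bars. Stra8 stands between 457 and 619.6 from 24 h to 60 h, Rec8, Mael and Taf7l are highest at 48 h or 60 h, and the mESC libraries lie apart for Dazl and Tex19.1.

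The members were read beside all genes, where a change meant a level at least 2-fold above or below the mean of the mESC libraries with at least 20 UMIs in the larger. At 6 h, 1 of 5 members tested was higher (Stra8), against 3.15% of 6437 genes, and 2 were lower (Dazl and Sycp3), against 4.24%. At 24 h, 1 of 5 was higher (Stra8), against 9.05% of 6653 genes, and 1 was lower (Morc1), against 6.73%. At 48 h, 3 of 7 were higher (Stra8, Rec8 and Mael), against 18.8% of 7551 genes, and 2 were lower (Dazl and Morc1), against 7.67%. At 72 h, 2 of 6 were higher (Stra8 and Rec8), against 21.3% of 7127 genes, and the other 4 were lower, against 9.15%. Rec8 and Mael at 48 h, and Rec8 at 72 h, reached 20 UMIs only in the RA library. Once admitted in this way they could only be called higher. At 96 h, 1 of 5 was higher (Stra8), against 25.4% of 7343 genes, and the other 4 were lower, against 8.74%. Conversely, Sycp3 at 6 h, 72 h and 96 h, Morc1 at 72 h and Dazl at 96 h reached 20 UMIs only in the mESC libraries. These genes could not have been called higher, so the counts of lower members were also partly set by the filter. The median log2 change of the members tested was -0.55 at 48 h and -2.88 at 96 h, and that of all genes tested was 0.27 and 0.35.

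The time of loss was the first time point from which a gene stayed at or below 0.5 of its mean mESC level, for genes with at least 20 UMIs in each mESC library. It was 24 h for Morc1, 48 h for Dazl, 60 h for Sycp3 and 72 h for Tex19.1, and 9.86% of 5539 genes were lost by 96 h. Among pluripotency genes, Klf2 was lost at 6 h, Klf4, Esrrb, Dppa3 and Tfcp2l1 at 12 h, Sox2, Fgf4 and Nr0b1 at 24 h, Zfp42 and Dppa5a at 36 h and Pou5f1 at 48 h, while Nanog did not stay below this level. In bulk RNA, Morc1 was thus lost at the same time point as Sox2, and Sycp3 and Tex19.1 after Pou5f1. Against mESC library 2 alone, Dazl was lost at 96 h and Tex19.1 was not lost, and against library 1 alone they were lost at 6 h and 48 h. Morc1 was lost at 24 h against either library, and Sycp3 at 60 h against library 2 and at 72 h against library 1. The single cells, given below, did not show the loss of Morc1 at 24 h.

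The genes most like each member over the 11 time-course libraries were found among 10285 genes by Pearson's r of log2(CPM + 1), as a description over libraries of 1 time series. Among the 5 genes most like Stra8 were Ramp3, Folr1, Hfe2 and 2610019E17Rik (r from 0.941 to 0.955). Among the 3 genes most like Mael was another member, Taf7l (r = 0.959). Rec8 was most like Fam111a (r = 0.967) and Taf7l like Tmem141 (r = 0.966), and among the 3 genes most like Sycp3 was Pla2g1b (r = 0.960). Morc1 was most like Laptm5, Nodal and Zfp42 (r from 0.987 to 0.988), and Tex19.1 like Fkbp6, a cochaperone of the piRNA pathway (r = 0.974). The 3 genes nearest to Dazl had r from 0.928 to 0.938, and 0 of them remained among its nearest 3 when either mESC library was left out. Of the 3 nearest to Rec8, 0 remained without mESC library 1 and 1 without library 2, and of the 5 nearest to Stra8, 3 remained without library 1 and 2 without library 2.

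In the sorted cells, Morc1 was lost in both types. Sorted ecto had 3.33 and 3.23 CPM and sorted XEN 2.03 and 8.20 CPM, far below both mESC libraries. The log2 fold change was -7.08 ± 0.496 (SE) in sorted ecto (edgeR adjusted p = 9.88e-06) and -6.54 ± 0.487 in sorted XEN (adjusted p = 2.39e-05). Sycp3 had 2.78 and 1.29 CPM in sorted ecto and 1.02 and 2.73 CPM in sorted XEN, again below both mESC libraries. Its log2 fold change was -3.37 ± 0.582 (adjusted p = 0.00211) in sorted ecto and -3.58 ± 0.626 (adjusted p = 0.00185) in sorted XEN. Dazl had 9.45 and 1.29 CPM in sorted ecto and 4.06 CPM and 0 in sorted XEN, and Tex19.1 had 15.6 and 12.9 CPM in sorted ecto and 19.8 and 18.2 CPM in sorted XEN. All of these libraries were below both mESC libraries. Dazl changed by -4.36 ± 1.07 (adjusted p = 0.0145) and -5.41 ± 1.22 (adjusted p = 0.00762), and Tex19.1 by -2.08 ± 0.464 (adjusted p = 0.00871) and -1.56 ± 0.457 (adjusted p = 0.0291).

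Of the 6 members that passed the filter on low counts, 4 were called lower and 0 higher in sorted ecto, against 9.28% of 8947 genes lower and 9.85% higher. The same 4 were called lower and 0 higher in sorted XEN, against 10.5% and 12.3%. Dazl, Morc1 and Sycp3 passed the filter through the mESC libraries, in which they were high. Sycp3 had 34 and 47 UMIs there and at most 5 in a sorted library. Once admitted in this way they could hardly be called higher, so these counts were partly set by the filter. Mael and Taf7l did not pass the filter. Taf7l was called higher in sorted XEN without the filter (log2 fold change 3.43, edgeR adjusted p = 0.00351) and when sorted ecto library 1 (3.50, adjusted p = 0.0323) or 2 (3.51, adjusted p = 0.0257) was left out of the shared fit. The calls of Morc1 and Sycp3 held in all 11 alternatives in both comparisons. Without mESC library 1, the change of Dazl was -1.56 in sorted ecto (edgeR adjusted p = 0.246) and -2.61 in sorted XEN (adjusted p = 0.0677), and that of Tex19.1 was -1.16 (adjusted p = 0.0771) and -0.64 (adjusted p = 0.335), so that none of these 4 calls held. The call of Dazl in sorted ecto was also lost without sorted ecto library 1 (adjusted p = 0.0529) or 2 (adjusted p = 0.138), as was that of Tex19.1 (adjusted p = 0.0692 and 0.0874). The call of Tex19.1 in sorted XEN held in 4 of 11 alternatives, and in DESeq2 it had an adjusted p of 0.0647 and Dazl in sorted ecto one of 0.150.

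Stra8 differed more between replicates than between groups. It had 82.8 and 9.69 CPM in sorted ecto, 48.8 and 7.29 CPM in sorted XEN and 20.998 and 5.22 CPM in mESCs, and library 1 was the higher in each pair. Its log2 fold changes over mESCs of 1.502 ± 0.876 in sorted ecto (edgeR adjusted p = 0.265) and 0.93 ± 0.894 in sorted XEN (adjusted p = 0.489) did not pass the test. Rec8 had 15.0 and 5.17 CPM in sorted ecto and 0.508 and 1.82 CPM in sorted XEN. Between sorted XEN and sorted ecto, 0 of 6 members were called, against 12.7% of all genes (6.99% higher and 5.74% lower). Rec8 alone had an unadjusted p under 0.05 (log2 fold change -3.17 ± 1.09, edgeR adjusted p = 0.0835), and DESeq2 likewise called 0 with 1 unadjusted. Rec8 was called lower in sorted XEN when mESC library 1 (adjusted p = 0.0245) or 2 (adjusted p = 0.033) was left out of the shared fit, and Stra8 was called higher in sorted ecto than in mESCs without the filter on low counts (log2 fold change 1.49, adjusted p = 0.00184). The direction of Stra8 turned when 1 library was left out, to -0.65 in sorted ecto without its library 1 (adjusted p = 0.744) and to -0.89 in sorted XEN without its library 1 (adjusted p = 0.678). In the long-term cultures Stra8 was at 2.68 CPM (ecto) and 2.76 CPM (XEN), whereas Tex19.1 was at 3.21 CPM in the ecto culture and 35.9 CPM in the XEN culture.

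**Figure D2:**
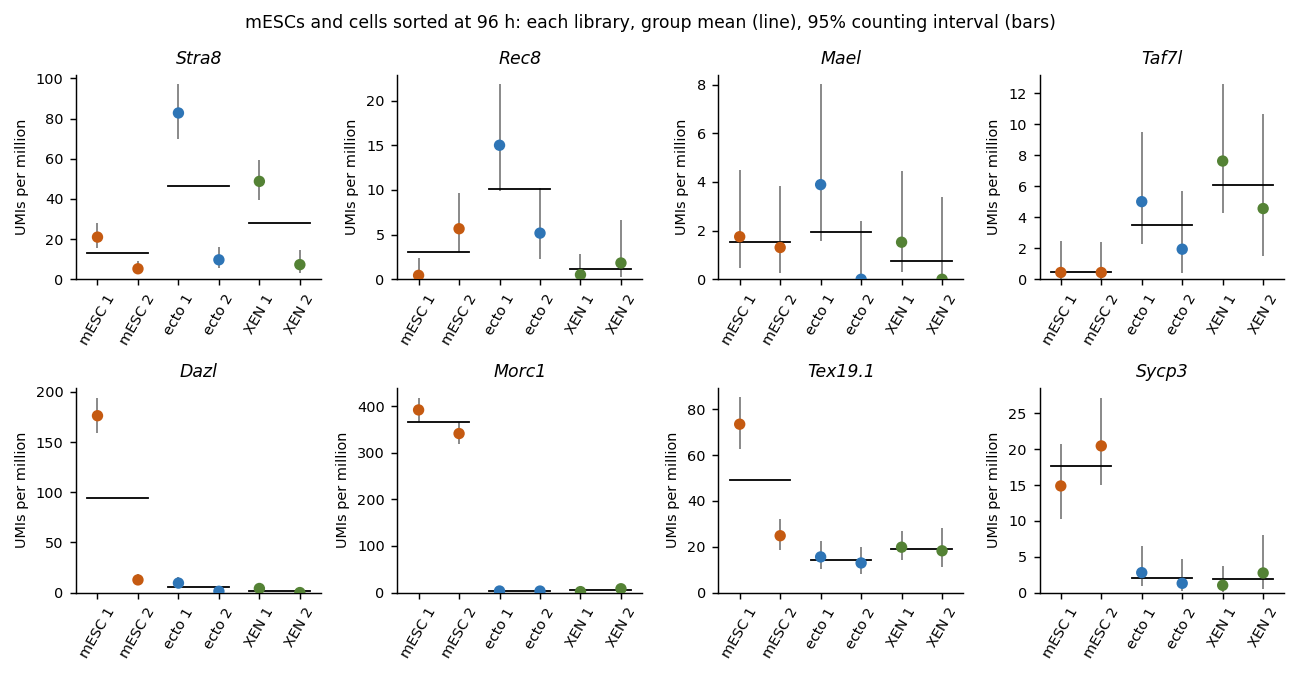
Bulk levels of the 8 genes (vertical axis, CPM) in both libraries of mESCs, sorted ecto and sorted XEN, with the group mean as a line and 95% counting intervals as bars. Morc1 stands at 392 and 341 in mESCs and at most at 8.20 in the sorted cells, while library 1 lies above library 2 for Stra8 in all 3 groups.

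Pathway lists that hold the members together with other genes were counted in the same tests, so the members enter these counts again. The limit set by the filter holds here too. The counts stand beside 9.28% of all genes lower and 9.85% higher in sorted ecto, and 10.5% and 12.3% in sorted XEN. Of the piRNA and transposon control list, 5 of 6 genes tested were lower in sorted ecto and 1 higher, and 5 of 6 were lower in sorted XEN. Morc1 and Tex19.1 were among the 5 in both. The other 3 were Tdrd12 (log2 fold change -5.98 in sorted ecto and -4.88 in sorted XEN), Fkbp6 (-3.38 and -4.08) and Gtsf1 (-3.23 and -4.27), and the gene that rose in sorted ecto was Tdrkh (6.40), whose protein tethers piRNA factors to mitochondria. The medians of the 6 were -3.31 and -4.17, and those of all genes 0.05 and -0.06. Of the synaptonemal complex and meiotic cohesin list, 3 of 9 were lower in sorted ecto and 4 of 9 in sorted XEN, Sycp3 among them, with Hormad1 at -5.37 and -5.12. Of the list of meiotic entry and recombination, 0 of 5 were called in sorted ecto and 1 of 5 in sorted XEN (Brca2, -1.87). Of 15 repressors of germline genes, 1 was higher (Ehmt1, 1.09) and 1 lower (L3mbtl2, -1.39) in sorted ecto, and 5 were lower in sorted XEN. Of 8 genes of DNA methylation and demethylation, 2 were higher and 4 lower in sorted ecto, among them the de novo methyltransferase Dnmt3a (2.13) and the dioxygenase Tet2 (-3.17), and 3 were lower in sorted XEN. Of 13 direct RA targets, Stra8 included, 7 were higher and 2 lower in sorted ecto, and 4 were higher and 3 lower in sorted XEN, with Rarb at 7.83 and 7.37.

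At 48 h, Stra8 did not follow CD24 among PDGFRA- cells. The quartiles had 289 CPM in Q1, 325 CPM in Q2, 315 CPM in Q3 and 322 CPM in Q4, and Q4 over Q1 was 1.11 (0.979 to 1.27). Morc1 had 64.2 CPM in Q1, 60.0 CPM in Q2, 38.5 CPM in Q3 and 18.9 CPM in Q4, lower with each higher quartile, and Q4 over Q1 was 0.295 (0.189 to 0.449). Rec8 took the opposite direction, with 5.35 CPM in Q1, 9.28 CPM in Q2, 9.40 CPM in Q3 and 13.9 CPM in Q4, a ratio of 2.60 (1.11 to 6.74). At least 2-fold higher in Q4 was 1 of 6 members (Rec8), against 5.05% of 5427 genes, and at least 2-fold lower was 1 of 6 (Morc1), against 4.24%. Genes counted had at least 20 UMIs in the larger library, and Rec8 reached this only through Q4 (22 UMIs, against 8 in Q1).

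At 72 h, Stra8 was graded over the fractions. It had 279 CPM in T1, 177 CPM in T2, 99.0 CPM in T3 and 38.95 CPM in PDGFRA+ cells, with T1 over T3 at 2.82 (2.30 to 3.47) and T1 over PDGFRA+ at 7.16 (5.35 to 9.74). Dazl had 42.7 CPM in T1, 22.1 CPM in T2, 10.7 CPM in T3 and 2.94 CPM in PDGFRA+ cells, in the same order. Rec8 differed from both, with 18.6 CPM in T1, 23.8 CPM in T2, 16.1 CPM in T3 and 0.735 CPM (1 UMI) in PDGFRA+ cells. Its ratio of T1 to T3 was 1.16 (0.617 to 2.18). At least 2-fold higher in T1 than in T3 were 3 of 5 members (Stra8, Dazl and Morc1), against 8.33% of 5426 genes, and 0 were lower, against 4.02%. At least 2-fold higher in T1 than in PDGFRA+ cells were 5 of 5, against 15.1% of 5488 genes, and in T3 than in PDGFRA+ cells 2 of 3, against 14.2% of 5557. A gene needed at least 20 UMIs in the larger library of a comparison. In PDGFRA+ cells Rec8 had 1 UMI, Dazl 4 and Morc1 7, and in T3 Dazl had 14 and Morc1 10. There these genes entered only through the fraction in which they were higher, so the counts were partly set by the filter.

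The pooled sorted fractions differed from the whole culture. The pools summed UMIs and were not weighted by the share of cells in each fraction, and the pool at 48 h held no PDGFRA+ cells. The labels do not say whether the fractions and the whole culture came from the same differentiation, so the ratios do not compare parts with their whole. At 48 h the whole culture over the pooled quartiles was 1.98 for Stra8 (1.85 to 2.13) and 3.10 for Rec8 (2.15 to 4.51), but 0.391 for Tex19.1 (0.302 to 0.501) and 0.395 for Morc1 (0.280 to 0.546). At least 2-fold higher in the whole culture was 1 of 8 members (Rec8), against 10.6% of 8790 genes, and lower were 2 (Tex19.1 and Morc1), against 5.81%. At 72 h, 0 of 6 were higher in the whole culture than in the pooled terciles and PDGFRA+ cells, against 5.69% of 8739 genes, and 1 was lower (Tex19.1, 0.317, 0.198 to 0.484), against 3.71%. The summed level of 6 markers of 2-cell-like cells was 154 CPM in the whole culture and between 424 and 592 CPM in the quartiles, and it was 841 CPM in T1, 384 CPM in T2, 134 CPM in T3 and 19.11 CPM in PDGFRA+ cells, with 0 of the 6 markers at 0 in the quartiles and terciles. Its part in these differences was not tested.

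**Figure D3:**
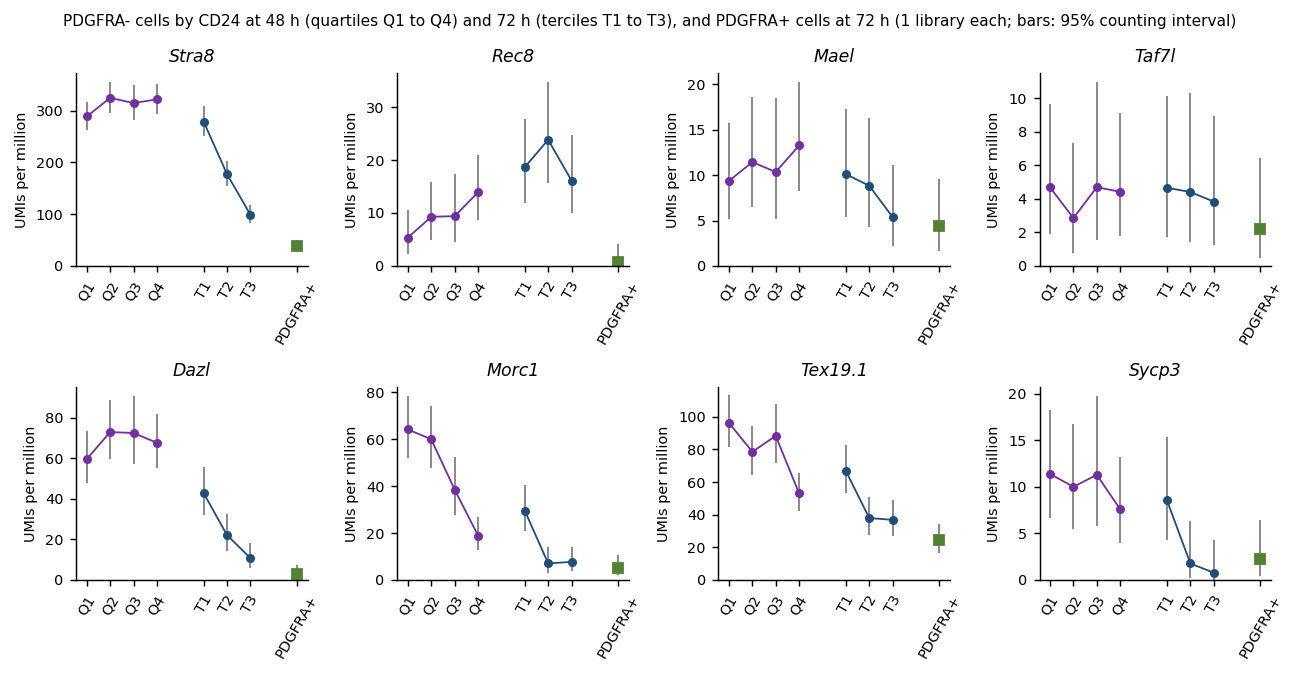
Bulk levels of the members in CPM in the CD24 quartiles at 48 h and in the CD24 terciles and PDGFRA+ cells at 72 h, with 95% counting intervals. Stra8 lies between 289 and 325 in the quartiles and falls from 279 in T1 to 38.95 in PDGFRA+ cells, and Morc1 falls from 64.2 in Q1 to 18.9 in Q4.

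In SCRB-seq, 2448 of 3456 wells had more than 2000 UMIs, with 137 to 335 cells per time point and median depths between 3559.5 and 5069 UMIs. All 9 plates used the same 384 well names, and 0 of 7257 pairs of kept wells with the same name were identical. Levels are summed UMIs per 10000, and shares are of cells with a UMI after each cell was thinned to 2000 UMIs. Stra8 had 0.0478 at 0 h, 0.189 at 6 h, 0.814 at 12 h, 2.45 at 24 h, 2.92 at 36 h, 4.25 at 48 h, 4.50 at 60 h, 1.10 at 72 h and 0.0275 at 96 h. The share of cells was 1.06% at 0 h, 31.7% at 24 h, 46.6% at 48 h (interval 40.6 to 52.6), 44.3% at 60 h and 0.730% at 96 h, and without thinning 2.84% at 0 h and 69.3% at 48 h. The rise and the loss seen in bulk were thus also present in the summed single cells. The Fano factor (variance over mean, which is 1 for counting error alone) of thinned Stra8 counts was 1.79 at 48 h, rank 374 of 3869 genes with a median of 1.34, and 2.20 at 60 h, rank 220 of 4264 with a median of 1.42. At the other times ranked it was 0.960 at 12 h (rank 3739 of 3824), 1.93 at 24 h (620 of 3773), 1.41 at 36 h (760 of 4138) and 1.79 at 72 h (1311 of 3900). The ranks were not adjusted for the level of a gene. A single cell at 60 h held 90 Stra8 UMIs, and without wells over 20000 UMIs the level at 60 h was 3.93.

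Rec8 was again later, at 0.106 per 10000 UMIs at 0 h, 0.0588 at 24 h, 0.494 at 48 h, 1.34 at 60 h, 0.711 at 72 h and 0.206 at 96 h, with a UMI in 22.3% of thinned cells at 60 h (17.5 to 27.8). Morc1 fell from 2.49 at 0 h over 1.84 at 6 h, 1.52 at 12 h, 1.74 at 24 h, 1.03 at 36 h and 0.325 at 48 h to 0.122 at 60 h and 0.0917 at 72 h. At 96 h it had 0 UMIs in 137 cells, with an exact upper limit of 0.0508 per 10000. A cell without a UMI may still hold the RNA. The share of thinned cells with Morc1 was 32.6% at 0 h, 21.7% at 24 h and 5.05% at 48 h, so that it fell together with the level. At 24 h the level of Morc1 was still above 0.5 of that at 0 h and fell below this by 36 h, whereas its bulk time of loss was 24 h. Tex19.1 was at 0.223 at 0 h, between 0.563 and 0.751 from 6 h to 48 h, 0.418 at 60 h and 0.0993 at 72 h. Dazl had 0 UMIs in 282 cells at 0 h, with an exact upper limit of 0.0196 per 10000, and reached 0.287 at 12 h. The kept cells held a similar number of UMIs at both times, 1884093 at 0 h and 1916671 at 12 h. In SCRB-seq Dazl thus rose after 0 h, whereas both bulk mESC libraries held it (403 and 29 UMIs). Sycp3 had 1 UMI in the 282 cells at 0 h (0.00531 per 10000) and was highest at 24 h with 0.229, a rise that the bulk libraries showed at most as 1.496-fold. Mael was at most 0.180 (60 h) and Taf7l at most 0.244 (48 h).

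**Figure D4:**
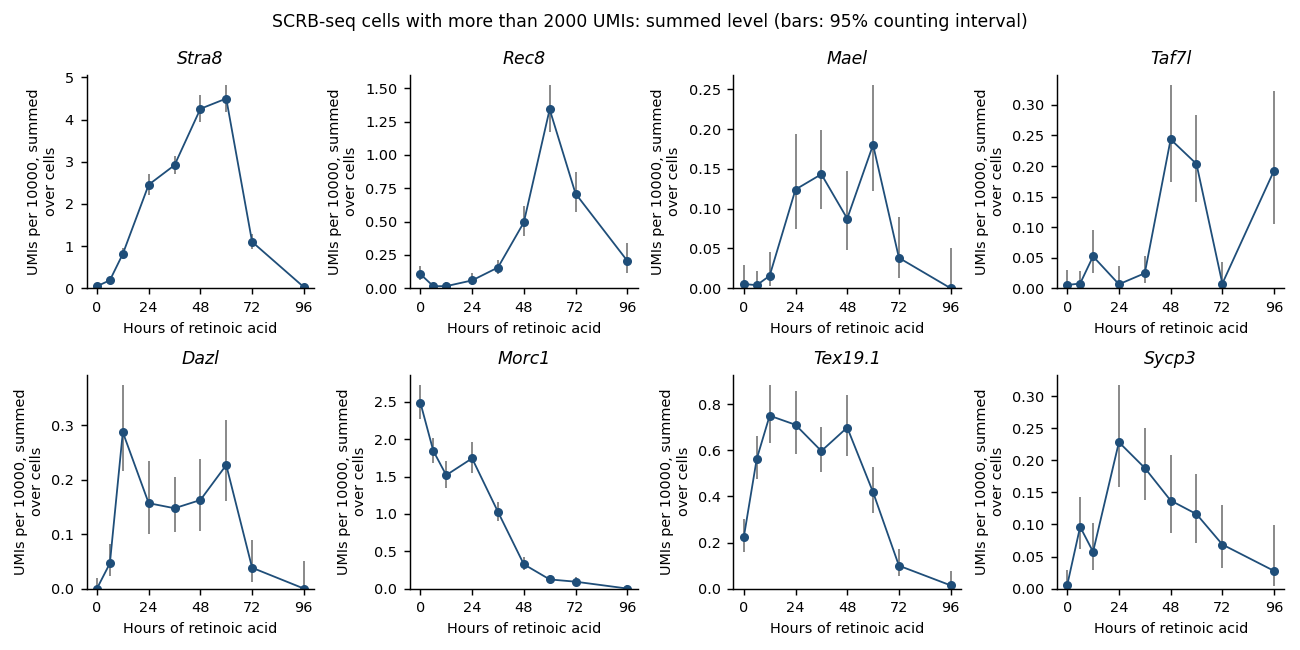
Summed level of the 8 genes in SCRB-seq cells (vertical axis, UMIs per 10000) against hours of RA, with exact 95% counting intervals as bars. Stra8 is highest at 60 h with 4.50 and Rec8 at 60 h with 1.34, and Morc1 falls from 2.49 at 0 h to 0 at 96 h.

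SMART-seq2 gave 339 cells (82 in 2i/L and 86, 89 and 82 after 12, 24 and 48 h of RA), with levels in RPKM scaled to a common total and no count of molecules, so that the depth behind a value is unknown. Stra8 ran from 0 to 321 RPKM with a median of 29.5 at 0 h, from 0 to 894 with a median of 238 at 12 h, from 38.3 to 1688 with a median of 547 at 24 h and from 0 to 2816 with a median of 536 at 48 h. It was above 1 RPKM in 54 of 82 cells at 0 h (65.9%, 54.6 to 75.97), in 84 of 86 at 12 h, in 89 of 89 at 24 h and in 81 of 82 at 48 h. At the later times nearly every cell thus carried Stra8 RNA. Its coefficient of variation across cells was 1.34 at 0 h, 0.630 at 12 h, 0.495 at 24 h and 0.794 at 48 h.

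Morc1 was above 1 RPKM in 82 of 82 cells at 0 h, 86 of 86 at 12 h, 85 of 89 at 24 h and 37 of 82 at 48 h, and its median was 72.3, 92.4, 68.7 and 0 RPKM. Tex19.1 was above 1 RPKM in 74, 76, 83 and 65 cells in the same order of times, at least 79.3% of cells each time. Dazl was above 1 RPKM in 41, 40, 52 and 39 cells, between 46.5% and 58.4% of cells at each time. Rec8 was above 1 RPKM in 37, 27, 41 and 63 cells, Mael in 3, 13, 28 and 49, Taf7l in 3, 11, 8 and 29, and Sycp3 in 19, 39, 43 and 20. Rec8, Mael and Taf7l were on in more cells at 48 h than at any earlier time. Ddx4, the only marker of germ cells proper read in these cells, was above 1 RPKM in 8, 20, 18 and 42 cells. A cell held on average 3.16 ± 0.909 (SD) of the 7 germline genes at 0 h, 3.40 ± 1.24 at 12 h, 3.82 ± 1.32 at 24 h and 3.68 ± 1.53 at 48 h.

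At 48 h the cells were split into the 10 with the highest Pdgfra, the 29 others with the highest Cd24a and the other 43, with the class sizes of the study. The cells at the edges had 11.1 and 1.04 RPKM of Pdgfra and 98.0 and 90.02 RPKM of Cd24a, so the second edge is no gap. Stra8 was above 1 RPKM in 10 of 10, 29 of 29 and 42 of 43 cells, with medians of 452, 476 and 542 RPKM. Rec8 was above 1 RPKM in 7 of 10, 27 of 29 and 29 of 43 cells, with medians of 24.8, 99.1 and 38.9 RPKM. Mael was above 1 RPKM in 5 of 10, 24 of 29 and 20 of 43 cells, and Morc1 in 4 of 10, 10 of 29 and 23 of 43. The share was largest in the Cd24a-high cells for both Rec8 and Mael. Its interval overlapped those of both other classes for Rec8 (77.2% to 99.2%, against 51.5% to 80.9% in the other 43 cells), and for Mael it lay above that of the other 43 cells (64.2% to 94.2% against 31.2% to 62.3%) and overlapped that of the Pdgfra-high cells (18.7% to 81.3%). These cells share 1 culture, and the intervals cover the sampling of cells only. Across the 82 cells, which share 1 culture, Pearson's r of log2 levels was 0.498 between Rec8 and Cd24a, 0.404 between Stra8 and Rec8 (Spearman's rho 0.281) and 0.161 between Stra8 and Cd24a. In SCRB-seq cells at 48 h, without thinning and with counts divided by the UMIs of each cell, r between Stra8 and Rec8 was 0.0235.

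**Figure D5:**
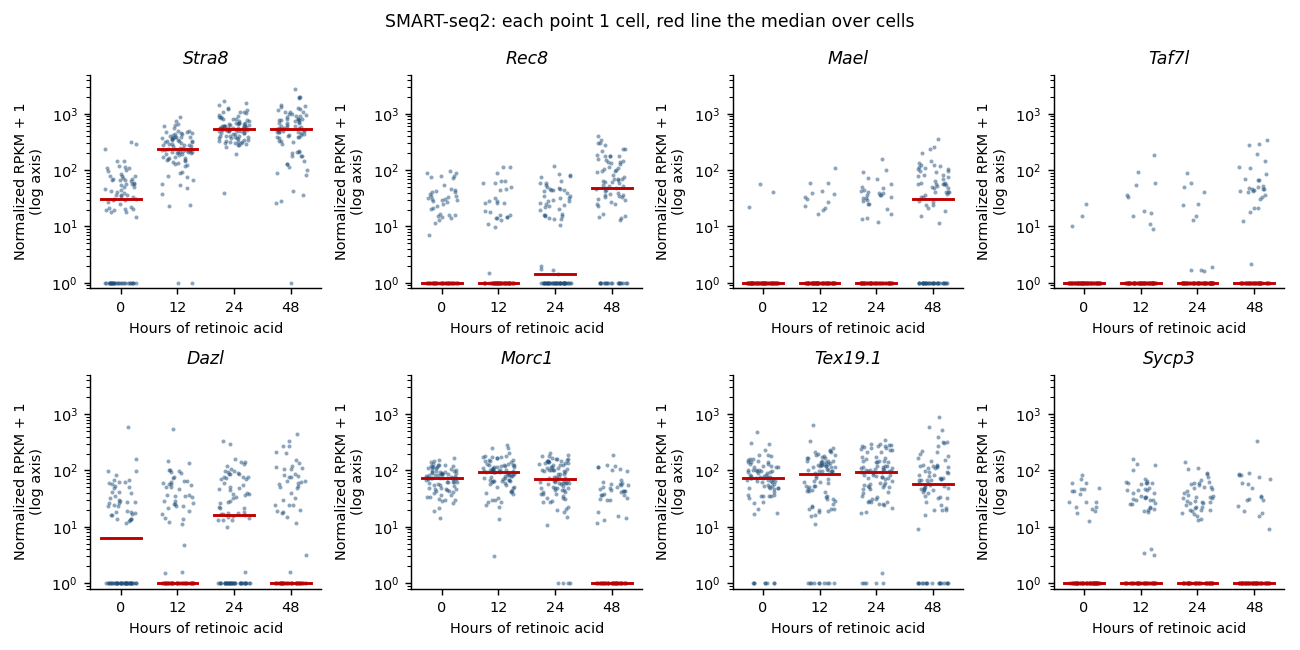
SMART-seq2 levels of the 8 genes against hours of RA, on a log axis of normalized RPKM + 1, with each point 1 cell and the median as a red line. Stra8 is above 1 RPKM in 54 of 82 cells at 0 h and in 81 of 82 at 48 h, and Morc1 in 82 of 82 and 37 of 82.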

How the data were processed

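The authors sequenced 3' ends with UMIs, aligned the reads with BWA 0.7.4 and deposited UMI counts per gene for bulk RNA and for SCRB-seq wells. For SMART-seq2 they deposited RPKM per cell, for which the submitters' processing notes name TopHat, Cuffnorm and mm10. A part of the RPKM values under 1 was written as text with a decimal comma and was read with a decimal point, and 3 text cells in 2 genes of the bulk table were left out.

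The members and lists were chosen with earlier results of these data known. The 8 members are always named, besides the 4 genes with the largest fold in a list, genes a member is compared with and the genes most like a member, of which some are not reported here. Replicated groups were compared with edgeR 4.0.16 in R 4.3.3 (quasi-likelihood, TMM, filterByExpr, 6 libraries, Benjamini-Hochberg over 8947 genes, threshold 0.05), with DESeq2 1.42.0 as an alternative, tested on simulated data. Sorted replicates are biological replicates per the labels, and the methods say the same of mESCs. P-values measure the spread between these samples. An exact permutation of 2 against 2 libraries cannot go below p = 0.333. Other values used Python 3.11.15 and scipy 1.17.1, with exact Poisson, conditional and Clopper-Pearson intervals. No doublet caller was run, and wells over 20000 UMIs, which held between 6.99% and 29.5% of the UMIs of a time point, were kept. In each cell, RPKM values were multiplied so that all cells had 1 total, the median of those in 2i/L. Gene positions are from GENCODE on GRCm38.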

Additional observations from a re-analysis of the deposited data

How the results depend on the processing

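DESeq2 called 1112 genes between sorted ecto and mESCs (1711 in edgeR) and 718 between sorted XEN and sorted ecto (1139 in edgeR). Leaving out 1 library gave 876 to 1750 genes for sorted ecto against mESCs, 1267 to 1962 for sorted XEN against mESCs and 296 to 1371 for sorted XEN against sorted ecto. With the replicate block the counts were 2167, 2515 and 1515, and Stra8 in sorted ecto was then called higher (log2 fold change 1.31, edgeR adjusted p = 0.0209). The labels share replicate numbers only, and same-numbered libraries correlated in their deviations at 0.114 (mESC and ecto), 5.46e-05 (mESC and XEN) and 0.385 (ecto and XEN), so they were not taken as pairs. Without the filter on low counts 2547, 2709 and 1667 genes were called. The log2 change of Stra8 at 24 h was 6.79 without mESC library 1 and 4.78 without library 2. Leaving out library 1 turned Dazl from lower to higher, to 1.40 at 6 h, 2.16 at 24 h and 1.66 at 48 h, whereas without library 2 it stayed lower (-2.41, -1.65 and -2.15). Tex19.1 at 6 h was 1.32 without library 1 and turned to -0.24 without library 2, and at 48 h it turned to 0.30 without library 1 and was -1.27 without library 2. With 0.25 of the mESC level as limit, the time of loss was 60 h for Dazl, 36 h for Morc1 and 84 h for Sycp3, and Tex19.1 was not lost. Relative to Gapdh it was 72 h for Sycp3. Without mESC library 1 it was 96 h for Dazl, and without library 2 it was 6 h for Dazl, 48 h for Tex19.1 and 72 h for Sycp3. Of 32 comparisons of the most like genes across alternatives, 27 lost at least 1 gene. Wells over 20000 UMIs were left out as an alternative chosen after seeing the data. Depth limits Mael and Taf7l, with at most 26 and 17 UMIs in a time-course library.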
